A study of Homo sapiens with 6 samples.

Results

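The antioxidant target genes of the transcription factor NRF2 were followed in leukaemia cells during a short inhibition of the histone acetyltransferases CREBBP (CBP) and EP300. The set held 10 of the 25420 genes counted: HMOX1, FTH1, FTL, SLC7A11, GCLC, GCLM, TXNRD1, SRXN1, NQO1 and OSGIN1. The genes were selected on earlier results of the same contrast, C646 against DMSO in new and in total RNA, so that their differences in this contrast are given below as a description, without p-values.

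The study asked which genes depend directly on CBP and EP300. MOLM-13, an established line of acute myeloid leukaemia cells with an MLL-AF9 fusion, received either the catalytic inhibitor C646 (10 µM) or its solvent DMSO over 2 h, in 3 replicates per group, and the labels name no further drug or genetic change. For the last 1 h all 6 also received the uridine analogue 4-thiouridine (4sU, 100 µM), which enters RNA while it is made and, once alkylated, is sequenced as C instead of T. A read with a T-to-C conversion (T>C read) therefore counts as new RNA, and all reads together as total RNA.

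NRF2, the product of NFE2L2, is normally bound by KEAP1, which brings it to the CUL3 ubiquitin ligase and so to the proteasome. Electrophiles and oxidants modify cysteines of KEAP1, NRF2 then accumulates, pairs with a small MAF protein and binds antioxidant response elements, DNA motifs near genes of glutathione, thioredoxin, quinone, haem and iron metabolism. BACH1 also pairs with small MAF proteins and represses some of the same genes, HMOX1 and the ferritin genes among them, until haem releases it.

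Between 7252597 and 10225448 reads per library lay on annotated 3′ untranslated regions (3′ UTRs), of which T>C reads made up 8.79% ± 0.0637 (SD, n = 3) in the DMSO group and 6.48% ± 0.203 (SD, n = 3) in the C646 group. No library without 4sU was analysed here, so that conversions from sequencing errors were not measured and are part of every T>C value. Of 12 markers of myeloid leukaemia cells, 10 were above 1 CPM (reads per 1000000 reads of the library, with library totals scaled by TMM) in every library, with a summed level of 3928 to 4185 CPM in DMSO and 4083 to 4359 CPM in C646. LYZ made up most of this sum, at 2802 CPM in DMSO and 3029 CPM in C646 on average. Other members differed in both directions, with SPI1 at 198.5 and 94.9 CPM, CD33 at 176 and 121, FLT3 at 122 and 187 and PTPRC at 18.0 and 34.1 in DMSO and C646, and their part in the results was not tested. CSF2RA was listed at 0. Of the 3 T cell markers, CD3E and CD2 were listed at 0 and CD3D was at 1.49 to 3.05 CPM. All 4 erythroid markers were listed at 0. Of the 3 endothelial markers, CDH5 and VWF were listed at 0, whereas PECAM1, which myeloid cells also express, averaged 149.8 CPM in DMSO and 107.8 CPM in C646. The summed level of the 3 B cell markers was 1.08 to 3.19 CPM and that of the 3 epithelial markers 0 to 1.85 CPM over the 6 libraries. The summed level of the 3 fibroblast markers was 0.808 to 2.32 CPM in DMSO and 5.69 to 6.75 in C646, with COL1A2 and PDGFRA at 0, and the part of this difference in the results was not tested. As in any bulk sample, fewer cells of a kind and less RNA per cell cannot be told apart.

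In new RNA, 9 of the 10 genes had higher levels in all C646 libraries than in any DMSO library, and GCLC had lower ones. How many of all genes tested had groups apart in this way was not counted, here or in total RNA. Levels of new RNA are T>C reads as CPM on the total of all reads (T>C CPM), and levels of total RNA are all reads as CPM. A call took an adjusted p-value up to 0.01 in edgeR's quasi-likelihood test together with a log2 fold change of 1 or more in either direction. By this rule 8 of the 10 genes were called higher, against 2.97% of the 7722 genes tested, and GCLC was called lower, against 33.0%. NQO1 was not called. The median log2 fold change was 1.99 over the 10 genes and −0.83 over all genes tested. All 10 genes passed the filter on low counts, but HMOX1 and OSGIN1 passed it only through their C646 libraries, GCLC reached its cutoff in 3 DMSO libraries and 1 C646 library, and NQO1 in 2 DMSO and 3 C646 libraries. The genes had also been chosen on this contrast, so that the counts carry no independent support.

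**Figure D1:**
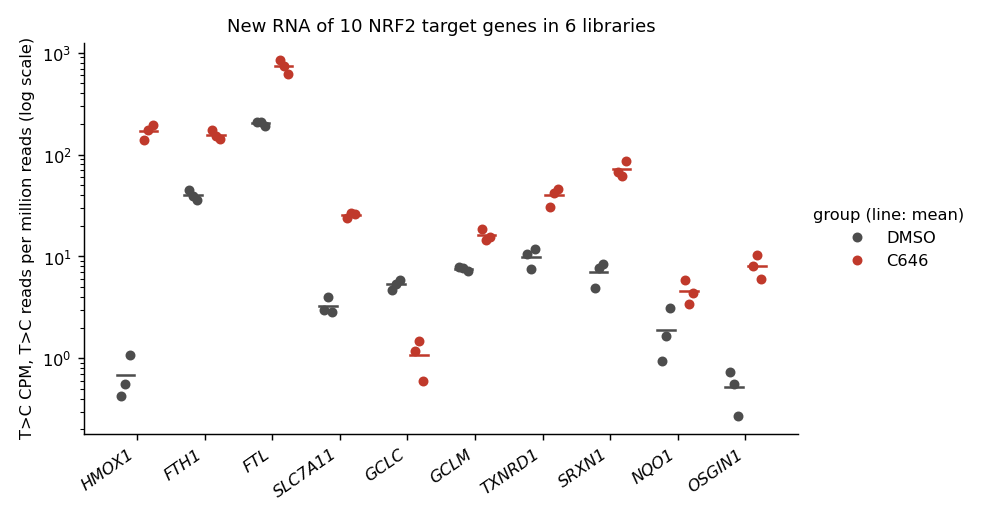
T>C CPM (vertical axis, log scale) of the 10 genes in each of the 3 DMSO (grey) and 3 C646 (red) libraries, with group means as lines. C646 libraries lie above all DMSO libraries for 9 genes, from 3.43 against 3.10 at the narrowest gap for NQO1 to 139 against 1.08 for HMOX1, and below them for GCLC.

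In total RNA, 5 of the 10 genes were called higher, against 5.89% of 10851 genes tested, and none was called lower, against 1.88%. The called genes were HMOX1, OSGIN1, SRXN1, SLC7A11 and TXNRD1. GCLM and NQO1 also had higher total levels in all C646 libraries than in any DMSO library, GCLC had lower ones, and the groups overlapped for FTH1 and FTL. The median log2 fold change of total RNA was 1.15 over the 10 genes and −0.0030 over all genes tested. A gene can therefore be read on both scales, and the genes are taken below by their roles.

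**Figure D2:**
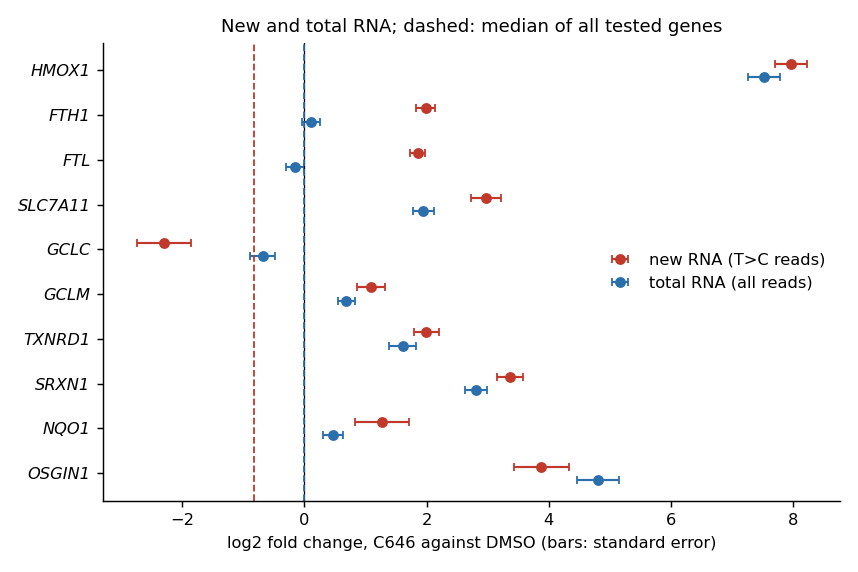
Log2 fold change (horizontal axis, C646 against DMSO) of new RNA (red) and total RNA (blue) for each of the 10 genes, with standard errors as bars and the medians of all tested genes as dashed lines. The ferritin genes FTH1 and FTL are near 2 in new RNA and near 0 in total RNA, whereas HMOX1 is above 7 in both.

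HMOX1 encodes haem oxygenase 1, which breaks haem down to biliverdin, carbon monoxide and iron. Its reads were counted on the 3′ UTR on chromosome 22, 35393599 to 35394214 (GRCh38, plus strand). In GENCODE release 44 the stretch overlaps UTR and exon entries of HMOX1 and no coding part of it, and the 3′ UTRs of the other 9 genes likewise overlap their own genes. The 3 DMSO libraries held 4, 4 and 8 T>C reads of HMOX1, and the 3 C646 libraries held 1053, 1431 and 1975. New RNA thus stood at 0.684 ± 0.347 T>C CPM (SD, n = 3) in DMSO and 170.2 ± 28.7 in C646 (log2 fold change 7.97, standard error 0.26). HMOX1 was thus barely read in DMSO, and no C646 library came near a DMSO library. Total RNA of HMOX1 was 1.98 ± 0.719 CPM in DMSO and 356 ± 74.7 in C646 (log2 fold change 7.52, standard error 0.26). Without a conversion, HMOX1 reads were at 1.30 ± 0.606 CPM in DMSO and 186 ± 47.5 in C646. Both kinds of HMOX1 reads were thus far higher in C646. Whether the reads without a conversion came from RNA made before the labelling or from labelled RNA without a detected conversion cannot be told apart. Among the 7722 genes tested in new RNA, HMOX1 had the fifth highest log2 fold change.

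The ferritin genes showed another picture. FTH1 and FTL encode the heavy and light chains of ferritin, the shell in which cells store iron released from haem and other sources. The 3′ UTR of FTL lies on chromosome 19, 48966736 to 48966879 (plus strand), and that of FTH1 on chromosome 11, 61964285 to 61964726 (minus strand). New RNA of FTL was 209, 210 and 193 T>C CPM in the DMSO libraries (replicates 1 to 3) and 840, 747 and 622 in the C646 libraries. The lowest C646 library lay well above the highest DMSO library, with a log2 fold change of 1.85 (standard error 0.13). Total RNA of FTL was 6556, 7427 and 6794 CPM in DMSO and 7352, 6376 and 4982 in C646 (log2 fold change −0.15, standard error 0.15), and the groups overlapped.

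FTH1 had the same shape. New RNA of FTH1 was 44.6, 39.0 and 35.5 T>C CPM in DMSO and 174, 153 and 144 in C646 (log2 fold change 1.98, standard error 0.15) with no overlap. Total RNA of FTH1 was 840 ± 118 CPM in DMSO and 909 ± 144 in C646 (SD, n = 3), with a log2 fold change of 0.11 and a standard error of 0.15 with overlap. FTH1 has many processed pseudogenes, and 47.2% to 65.2% of its reads per library mapped to more than 1 place, against at most 1.11% for each of the other 9 genes in any library. With multimapped reads taken off, the log2 fold change of FTH1 total RNA was 0.0706. The deposited multimapped counts do not separate T>C reads, so the new RNA of FTH1 could not be freed of them. The FTH1 3′ UTR overlaps an entry of BEST1 on the opposite strand, and that entry held 77 reads in the 6 libraries together, against 43669 for FTH1.

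The share of T>C reads in all reads of a gene needs no scaling between libraries. For FTL the share was 3.19% (95% Wilson interval 3.05 to 3.33), 2.83% (2.69 to 2.97) and 2.84% (2.69 to 2.98) in DMSO replicates 1 to 3. In C646 replicates 1 to 3 it was 11.4% (11.2 to 11.7), 11.7% (11.4 to 12.0) and 12.5% (12.2 to 12.8). These intervals cover counting error only, since PCR copies of a molecule are counted as reads of their own. Among the tested genes with reads in DMSO, FTL was at percentile 2.40 of the T>C share, among the lowest, whereas in C646 it was at percentile 70.6. FTH1 went from 4.74% ± 0.290 at percentile 8.72 to 17.4% ± 1.03 at percentile 82.8. The log2 fold change in the odds of a T>C read was 2.15 (standard error 0.08) for FTL and 2.08 (standard error 0.12) for FTH1.

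**Figure D3:**
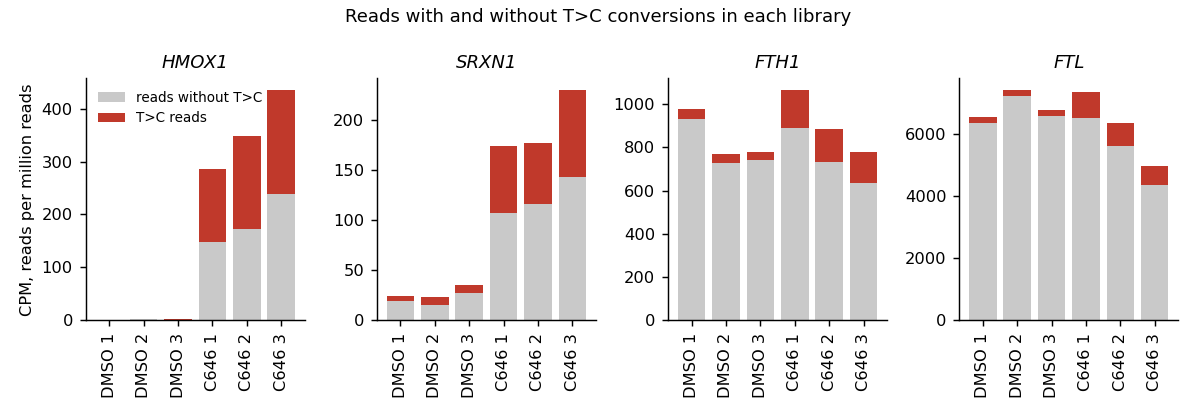
CPM (vertical axes, from 0, a scale of its own in each panel) without T>C conversions (grey) and with them (red), stacked, in each of the 6 libraries for HMOX1, SRXN1, FTH1 and FTL. For HMOX1 and SRXN1 both parts are larger in C646, whereas for FTH1 and FTL only the red part is.

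Because FTL and FTH1 are read so often, they set the sum over the 10 genes. In DMSO the 10 genes took 0.320% ± 0.0076 (SD, n = 3) of all T>C reads, of which 0.279 percentage points were ferritin, and in C646 they took 1.89% ± 0.195, of which 1.38 were ferritin. Of all reads the 10 genes took 0.800% ± 0.0292 in DMSO and 0.801% ± 0.128 in C646. Ferritin made up 0.781 ± 0.0299 and 0.711 ± 0.139 percentage points of these, so the remainder was larger in C646. The set thus held a larger part of new RNA in every C646 library than in any DMSO library, and a part of total RNA that differed between the groups by less than the spread within C646.

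SLC7A11 is the transporter subunit of the antiporter that imports cystine, the source of the cysteine in glutathione. Its 3′ UTR (chromosome 4, 138164094 to 138171955, minus strand) held 28, 29 and 21 T>C reads in DMSO and 180, 219 and 263 in C646. New RNA was 2.95, 4.02 and 2.83 T>C CPM in DMSO and 23.8, 26.8 and 26.1 in C646 (log2 fold change 2.97, standard error 0.24). Total RNA was 16.8 ± 3.12 and 64.5 ± 1.95 CPM (SD, n = 3), with a log2 fold change of 1.95 and a standard error of 0.17. Both differences were far wider than the spread within the groups. The T>C share of SLC7A11 was 19.4% ± 0.751 in DMSO and 39.6% ± 1.27 in C646. Entries of SLC7A11-AS1 on the opposite strand overlap the 3′ UTR and were listed at 0 reads in the 6 libraries together.

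GCLC and GCLM form glutamate-cysteine ligase, the enzyme of the first and rate-limiting step of glutathione synthesis, GCLC as its catalytic and GCLM as its modifier subunit. The subunits differed in opposite directions. New RNA of GCLM (chromosome 1, 93885200 to 93888989, minus strand) was 7.90, 7.76 and 7.14 T>C CPM in DMSO and 18.5, 14.5 and 15.6 in C646 (log2 fold change 1.09, standard error 0.23). New RNA of GCLC (chromosome 6, 53497341 to 53498755, minus strand) was 4.64, 5.41 and 5.92 in DMSO and 1.19, 1.47 and 0.595 in C646 (log2 fold change −2.30, standard error 0.44). GCLC counts were small in C646, with 9, 12 and 6 T>C reads in the libraries. Neither gene had overlapping groups. In total RNA, the log2 fold change was 0.68 (standard error 0.14) for GCLM and −0.68 (standard error 0.21) for GCLC, and neither was called. The T>C share of GCLC was 16.3% ± 3.15 in DMSO and 5.10% ± 0.833 in C646. With library sizes set by TMM on the T>C reads, a scaling that moved the median of all genes in new RNA up by 0.84, GCLC stayed negative at −1.46 but was no longer called. Counted from the highest log2 fold change of new RNA, GCLC was at rank 7147 of 7722.

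TXNRD1 encodes thioredoxin reductase 1, which passes electrons from NADPH to thioredoxin, and SRXN1 encodes sulfiredoxin, which restores overoxidized peroxiredoxins. New RNA of TXNRD1 (chromosome 12, 104348422 to 104350307, plus strand) was 10.5, 7.49 and 11.8 T>C CPM in DMSO and 30.7, 42.4 and 46.4 in C646. Total RNA of TXNRD1 was 47.5, 24.8 and 51.4 CPM in DMSO and 104, 133 and 142 in C646. The groups did not overlap on either scale, with a log2 fold change of 2.00 (standard error 0.21) in new and 1.61 (standard error 0.22) in total RNA. DMSO replicate 2 was the lowest library of TXNRD1 in both.

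New RNA of SRXN1 (chromosome 20, 646624 to 648713, minus strand) was 4.85, 7.76 and 8.48 T>C CPM in DMSO and 66.8, 61.3 and 86.4 in C646 (log2 fold change 3.36, standard error 0.21). Total RNA of SRXN1 was 27.6 ± 6.79 and 193 ± 31.3 CPM (SD, n = 3), with a log2 fold change of 2.81 and a standard error of 0.18. After HMOX1 and OSGIN1, SRXN1 had the highest fold of the set on both scales. An exon of ENSG00000270299 lies on the same strand over the SRXN1 3′ UTR in GENCODE release 44, so reads of that gene would be counted with SRXN1.

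The T>C shares of TXNRD1 and SRXN1 were already above the median of tested genes in DMSO. They were 25.1% ± 4.39 and 25.8% ± 6.96, against a median of 13.3%, and in C646 they were 31.3% ± 1.62 and 36.9% ± 1.99, against a median of 7.37%. The log2 fold change in the odds of a T>C read was 0.49 (standard error 0.24) for TXNRD1 and 0.78 (standard error 0.25) for SRXN1. In both genes reads with and without conversions were higher in C646, in contrast to the ferritin genes.

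NQO1 encodes a quinone reductase that is widely used as a readout of NRF2. In these cells its new RNA (chromosome 16, 69709401 to 69710975, minus strand) was 0.949, 1.66 and 3.10 T>C CPM in DMSO and 5.82, 3.43 and 4.36 in C646. The groups were adjacent and did not overlap, with 9 to 23 T>C reads per DMSO library behind the values. The log2 fold change was 1.27 (standard error 0.44) in new RNA and 0.47 (standard error 0.17) in total RNA, both short of the call rule, and the new RNA was called without DMSO replicate 3, at 1.81, and with library sizes set by TMM on the T>C reads, at 2.11, or by all filtered reads, at 1.47. An exon of ENSG00000261602 lies on the opposite strand over the NQO1 3′ UTR.

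OSGIN1, a growth inhibitor induced by oxidative stress, was close to absent in DMSO, with 7 of 9, 4 of 9 and 2 of 2 reads carrying a conversion in replicates 1 to 3. In C646 its 3′ UTR (chromosome 16, 83966008 to 83966332, plus strand) held 156, 227 and 227 reads, of which 61, 84 and 60 were T>C reads. The log2 fold change was 3.88 (standard error 0.45) in new and 4.81 (standard error 0.34) in total RNA. OSGIN1 was the only member of the set called higher in total RNA whose total difference was the larger. Its reads without conversions were at 0.301 ± 0.355 CPM in DMSO and 15.6 ± 2.63 in C646, and the low DMSO counts leave its T>C share in DMSO with wide intervals, from 18.9% at the lowest to 100.0% at the highest bound.

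**Figure D4:**
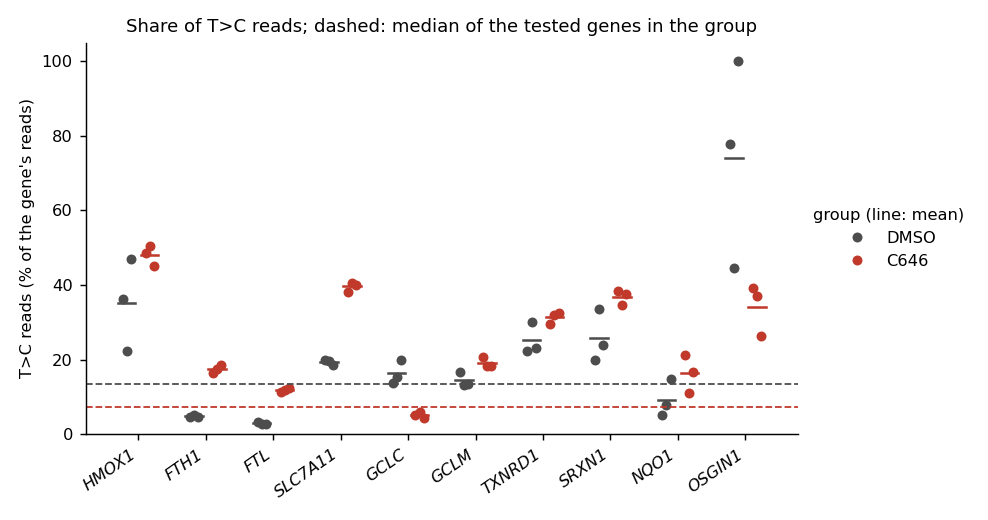
T>C reads as a percentage of the reads of each gene (vertical axis) in the 3 DMSO (grey) and 3 C646 (red) libraries, with group means as lines and the median of the tested genes in each group as dashed lines (13.3% in DMSO, 7.37% in C646). FTH1 and FTL are below the grey line in DMSO and above the red line in C646, GCLC crosses the other way, and OSGIN1 rests on 2 to 9 reads per DMSO library.

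By the odds of a T>C read, SLC7A11, FTH1 and FTL were called higher, against 0.790% of the 7722 genes tested, and GCLC was called lower, against 38.3%. The other 6 genes were not called, though SRXN1 was without DMSO replicate 2, at 1.05. The median over all tested genes was −1.004 on the log2 scale, that is, most messages held fewer T>C reads in C646, and 8 of the 10 genes differed from that in sign. Of the 10 genes, GCLC and OSGIN1 had a negative value, with −1.80 (standard error 0.42) and −1.86 (standard error 0.82). The odds of OSGIN1 rest on few DMSO reads and were −3.04 without DMSO replicate 2.

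Conversions and T>C reads are listed as separate counts, and some entries of other genes hold fewer conversions than T>C reads, so their ratio is not a count per read. Conversions per T>C read varied among the genes from 1.14 ± 0.247 for OSGIN1 to 2.74 ± 0.684 for TXNRD1 in DMSO (SD, n = 3). In C646 they ranged from 1.50 ± 0.171 for OSGIN1 to 2.67 ± 0.181 for TXNRD1. Among the genes whose groups did not overlap, the differences went both ways. How many of all genes had groups apart in this ratio was not counted. Conversions per T>C read were higher in C646 for FTL, FTH1 and SRXN1, at 1.88 ± 0.0305 against 1.72 ± 0.0779 for FTL and at 2.26 ± 0.0485 against 2.06 ± 0.121 for FTH1, and from 2.02 to 2.18 against 1.78 to 1.98 for SRXN1. They were lower in C646 for GCLM, from 2.06 to 2.26 against 2.45 to 2.65, and for GCLC, from 1.33 to 2.08 against 2.36 to 2.84.

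The order of the C646 libraries differed between genes. C646 replicate 3 had the highest new RNA of HMOX1, TXNRD1 and SRXN1 and the lowest of FTL, FTH1, GCLC and OSGIN1, whereas C646 replicate 1 had the lowest of HMOX1 and TXNRD1 and the highest of FTL and FTH1. Leaving out each library in turn moved the log2 fold change of new RNA between 7.67 and 8.43 for HMOX1, between 3.14 and 3.52 for SRXN1 and between 1.75 and 1.96 for FTL. No member changed sign in new RNA in this way. Without C646 replicate 1 GCLM lost its call at 0.99, just under the fold of the call rule.

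Promoter windows from 250 bases before to 50 bases after the start of each gene were taken from RefSeq (GRCh38.p14) and searched on both strands for TGACNNNGC, the core letters of the antioxidant response element. A window was on hand for 7 of the 10 genes, and 2 of these 7 genes, TXNRD1 and GCLM, held the letters in a window. Of all 27305 genes with a window, 16.1% did, and of all 35116 windows 13.3%. HMOX1, FTH1 and SLC7A11 had no entry, and TXNRD1 had 2 windows. The matches are shown because they place the motif relative to the start of genes that were higher in new RNA. Capitals mark the match, in the direction of the gene, up to 10 bases are given on either side, and a match on the opposite strand reads GCNNNGTCA.
TXNRD1 first window, same strand, 99 bases before the start, chr12:104215670-104215698, plus strand: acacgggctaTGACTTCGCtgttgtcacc
TXNRD1 first window, opposite strand, 8 bases before the start, chr12:104215761-104215779, plus strand: gcgtccttcgGCTCCGTCA
TXNRD1 second window, opposite strand, 102 bases before the start, chr12:104286920-104286948, plus strand: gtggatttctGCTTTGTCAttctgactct
GCLM, opposite strand, 34 bases before the start, chr1:93909446-93909474, minus strand: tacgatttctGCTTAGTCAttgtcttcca
The windows of SRXN1, GCLC, NQO1, OSGIN1 and FTL held no match, which says only that these letters are not in these windows. A match is a description of letters and not a measured binding site.

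The wider pathway was read from a list of 69 further genes, drawn up around NRF2, thioredoxin, glutathione, NADPH, haem and iron, and detoxification. Of these, 49 were tested in new RNA, where 4 were called higher, against 2.97% of all genes tested, and 15 lower, against 33.0%. In total RNA 64 were tested, where 2 were called higher, against 5.89%, and 1 lower, against 1.88%. The counts in new RNA include genes that reached the filter's cutoff in all libraries of only the group where they were higher. These were AKR1C1 and AKR1C2 among the 4 and MAFF, MAFK, AKR1A1, PRDX4 and SLC11A2 among the 15. With no filter the counts were again 4 and 15. Those in total RNA depend on single libraries and on the scaling, with 5 higher without DMSO replicate 3 and 6 with all filtered reads. Of lower genes there were 0 without C646 replicate 3, without DMSO replicate 2 or with all filtered reads, 3 without C646 replicate 1 or DMSO replicate 3, and 4 with the replicate block. The median log2 fold change of new RNA over the 49 was −0.49, against −0.83 over all genes tested. With TMM on the T>C reads the split in new RNA was 12 higher and 5 lower, so that the balance of the list depends on the scaling. Over all genes that scaling gave 729 higher and 582 lower of 7856 tested. Each called gene named below kept its direction under it, and in each the C646 libraries all lay on the called side of the 3 DMSO libraries.

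**Figure D5:**
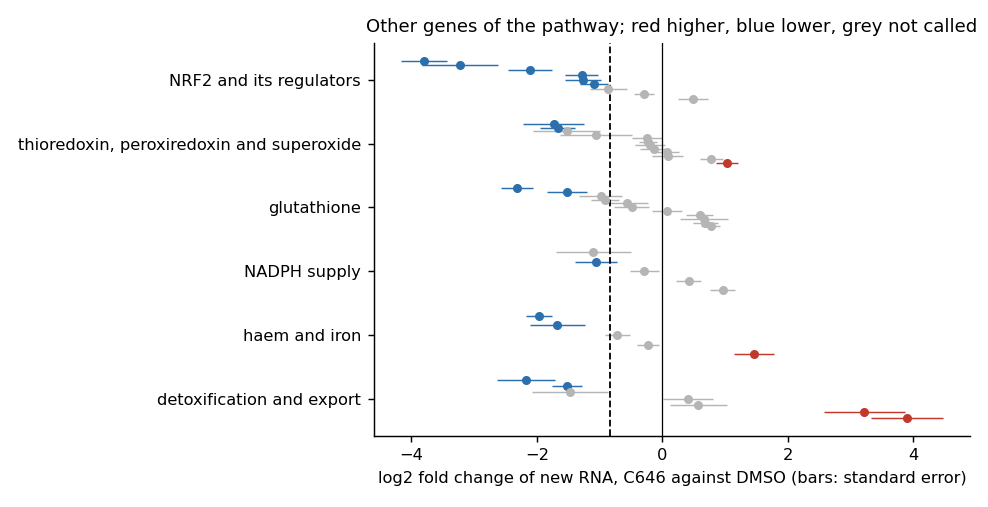
Log2 fold change of new RNA (horizontal axis, C646 against DMSO, bars are standard errors) of the 49 tested genes of the wider pathway, in 6 groups of function. Points in red were called higher (4 genes), in blue lower (15 genes) and in grey not called, and the dashed line is the median of all tested genes at −0.83.

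Among the regulators, NFE2L2 itself was not called. Its new RNA was 12.4 ± 4.78 T>C CPM in DMSO and 17.5 ± 2.32 in C646 (log2 fold change 0.49, adjusted p = 0.0819, edgeR), and its total RNA had a log2 fold change of 0.89 (adjusted p = 0.00773, edgeR), short of the fold. Under the scaling by T>C reads its new RNA was called, at 1.33, and its total RNA was called with scaling by all filtered reads (1.10) and without DMSO replicate 1 (1.14). KEAP1 fell from 16.9 ± 2.04 to 7.99 ± 0.757, a log2 fold change of −1.08 (adjusted p = 0.000185, edgeR). BACH1 fell from 9.12 ± 0.969 to 3.78 ± 0.756, a log2 fold change of −1.26 (adjusted p = 0.000604, edgeR). For KEAP1 and BACH1 the values were near the median of all genes, and under the scaling by T>C reads they were −0.24 and −0.43 and no longer called. KEAP1 was not called either with scaling by all filtered reads (−0.88) or without DMSO replicate 2 (−0.98).

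The small MAF genes encode the partners of both NRF2 and BACH1. New RNA of MAFK was 13.4 ± 3.37 T>C CPM in DMSO and 0.964 ± 0.488 in C646, a log2 fold change of −3.80, with 7, 12 and 5 T>C reads in the C646 libraries. New RNA of MAFF was 3.30 ± 0.567 in DMSO and 0.324 ± 0.241 in C646 (log2 fold change −3.22). The C646 libraries held 1, 2 and 6 T>C reads of MAFF, and without C646 replicate 3 its log2 fold change was −4.01. MAFF reached the filter's cutoff only in its DMSO libraries, and MAFK in 3 DMSO libraries and 1 C646 library, so these differences too are a description. Both genes were also called in the fit with no filter. MAFG was at 60.4 ± 7.05 and 49.2 ± 9.09, a log2 fold change of −0.29 (adjusted p = 0.128, edgeR) that was positive, at 0.54, under the scaling by T>C reads. MAFK and MAFF stayed called under that scaling, at −2.97 and −2.41. NFE2L1, a relative of NRF2 that drives proteasome genes, fell in new RNA by 2.11 on the log2 scale (adjusted p = 1.11e-05, edgeR). In total RNA none of the 10 tested regulators was called with all libraries and the main scaling.

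AKR1C1 and AKR1C2, aldo-keto reductases that are classical NRF2 targets in human cells, had the highest log2 fold changes of new RNA among the list. In DMSO the libraries held 3, 1 and 3 T>C reads of AKR1C1, in C646 34, 46 and 35, a ratio of scaled reads of 15.4 with an exact 95% counting interval of 7.22 to 39.1. AKR1C2 had 3, 3 and 1 and then 21, 15 and 38, a ratio of 9.89 (4.57 to 25.4). The reads of each group were pooled for these intervals, which cover counting error only and leave out the spread between libraries. Both passed the filter only through their C646 libraries, so their differences in new RNA are given as a description, and both were also called in the fit with no filter. The genes are close in sequence, and in no library was a read of either counted as mapped to more than 1 place. AKR1C1 was also called in total RNA, at 2.67 ± 0.124 and 8.32 ± 0.513 CPM, a log2 fold change of 1.64 (adjusted p = 0.00106, edgeR).

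SLC48A1, a transporter that moves haem out of endosomes and lysosomes, rose in new RNA from 2.96 ± 0.363 to 8.21 ± 1.52 T>C CPM, a log2 fold change of 1.46 (adjusted p = 0.000280, edgeR). SOD1, the cytosolic superoxide dismutase, rose from 21.7 ± 4.54 to 44.4 ± 2.77, a log2 fold change of 1.03 (adjusted p = 2.40e-05, edgeR), and dropped just under the fold of the call rule without C646 replicate 2 (0.98), DMSO replicate 1 (0.99) or DMSO replicate 3 (0.91). TFRC, the transferrin receptor that imports iron, fell from 32.3 ± 2.69 to 8.21 ± 1.68, a log2 fold change of −1.97 (adjusted p = 5.79e-09, edgeR), with total RNA at −0.07. Iron-regulatory proteins are known to bind the messages of ferritin and of the transferrin receptor with opposite outcomes. New RNA of TFRC and of the ferritin genes differed in opposite directions here, and the total RNA groups overlapped for TFRC, FTH1 and FTL. Whether iron-regulatory proteins had a part in these differences was not tested.

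GPX1, a glutathione peroxidase, fell in new RNA by 2.32 on the log2 scale (adjusted p = 1.97e-08, edgeR), from 22.8 ± 3.67 to 4.64 ± 1.85 T>C CPM. AKR1A1, another aldo-keto reductase, was at −2.17 on 7, 4 and 17 T>C reads in the C646 libraries. It reached the filter's cutoff in 3 DMSO libraries and 1 C646 library and was also called with no filter. Under the scaling by T>C reads AKR1A1 was at −1.35 and not called. Total RNA of GPX1 was short of the fold, at −0.98 (adjusted p = 0.00252, edgeR), and was called with the replicate block (−1.03), without C646 replicate 1 (−1.22) and without DMSO replicate 3 (−1.06). PRDX2, a peroxiredoxin and the gene of the list called lower in total RNA with all libraries and the main scaling, went from 224 ± 31.6 to 102 ± 39.1 CPM, a log2 fold change of −1.13 (adjusted p = 0.00224, edgeR), and it was not called without C646 replicate 3 (−0.85), without DMSO replicate 2 (−1.02) or with scaling by all filtered reads (−0.94). TXN, the thioredoxin that TXNRD1 reduces, rose in total RNA from 133 ± 38.8 to 378 ± 77.4 CPM, a log2 fold change of 1.50 (adjusted p = 0.000160, edgeR), while its new RNA was 10.5 ± 1.22 and 11.1 ± 3.99 T>C CPM (adjusted p = 0.793, edgeR).

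Neighbouring stress responses were read from 2 further lists. Of 8 genes of the metal response, metallothioneins above all, 6 were tested in new RNA. Of these, 0 were called higher, against 2.97% of all genes, and 3 lower, against 33.0%. Their median log2 fold change was −1.29, against −0.83 over all genes. SLC30A1, 1 of the 3 and named after its values were seen, reached the filter's cutoff in 3 DMSO libraries and 1 C646 library. Its T>C CPM groups overlapped, so its difference is a description. Of 12 genes of the ATF4 response, a pathway of which SLC7A11 is a known target too, 11 were tested, with 2 called higher and 0 lower in new RNA, against 2.97% and 33.0%, and 5 called higher in total RNA, against 5.89%. The median of that list was 0.79 in new RNA, against −0.83 over all genes. Its 2 genes called in new RNA, named after their values were seen, were DDIT4 (log2 fold change 2.82) and CHAC1 (2.06), and both were higher in all C646 libraries than in any DMSO library. No difference between the lists was tested.

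The genes whose new RNA followed HMOX1 most closely over the 6 libraries were MALAT1, HSPA6, DNAJB4, MRPL18 and HSPB1, with Pearson correlations of 0.9986, 0.9986, 0.9978, 0.9976 and 0.9974 among the 2843 genes that averaged 50 or more T>C reads in a library. HSPA6, DNAJB4 and HSPB1 encode chaperones. The libraries form separate groups by treatment, so that a gene with a large difference between groups gives a high correlation whatever its course within them.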

How the data were processed

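The authors aligned 3′ end SLAM-seq libraries to GRCh38 with SLAM-Dunk 0.4.1 (base calling CASAVA 1.9, per the submitters' processing notes) and deposited raw counts of all, T>C and multimapped reads and of conversions for 58136 3′ UTR entries of 25420 genes. The authors' CPM served only to recover the filtered reads as an alternative scaling. The T>C counts are not split by the number of conversions in a read, of which the methods of the study ask for more than 1, and some entries list fewer conversions than T>C reads. Whether the reads were counted by strand is not given in the sources used here, and p-values measure the spread between these libraries, which may be technical.

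Counts were summed per gene, with symbols for 25310 genes, and edgeR 4.0.16 in R 4.3.3 (filterByExpr, glmQLFit, glmQLFTest, Benjamini-Hochberg) was fitted across all genes, with TMM-scaled totals of all reads as library sizes. The odds of a T>C read were fitted with a factor for the library. Standard errors were taken as the size of the log2 fold change over the square root of F. The median tested gene had 35 T>C reads per library. Positions were compared with GENCODE release 44. Fits were also run on simulated counts, drawn with a single fixed spread and with changes in few genes, in both directions. In these data the median of new RNA was itself shifted, so that run checked the code only. Alternatives were other scalings and filters, DESeq2 1.42.0, a single 3′ UTR, a replicate block and left-out libraries.

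The 10 genes and all lists were chosen with earlier results of these data known. From the list of 69 genes the text names those called, at most 6 per direction and kind of RNA, and 6 regulators whatever their values. Plots were drawn with matplotlib 3.10.9, summaries with pandas 2.3.3, scipy 1.17.1 and numpy 2.4.6 in Python 3.11.15.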

Additional observations from a re-analysis of the deposited data

How the results depend on the processing

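Over all alternatives 394 of 404 values of single members kept direction and side of the call rule, 3 lost a call, 5 gained one and 2 changed sign, and of 487 values of named pathway genes 459 kept both. Library sizes from TMM on T>C reads moved the median of all genes in new RNA up by 0.84. With it 9 members were called higher and 0 lower, against 729 and 582 of 7856 genes tested. DESeq2 on size factors from T>C reads gave the same member counts, against 660 and 565 of 7722 genes. With both, the wider list had 12 higher and 5 lower. With at least 50 reads on average there were 7 members higher and 0 lower in new RNA, 0 lower by the odds of a T>C read, 1 higher and 9 lower genes of the list in new RNA and 1 higher in total RNA, since fewer genes were tested. Over all genes this filter gave 125 higher and 1038 lower of 2843 in new RNA, and 532 higher of 8851 in total RNA. Scaling by all filtered reads gave 6 higher and 0 lower genes of the list in total RNA, against 1014 and 90 of 10851 genes. For the list in total RNA, called lower were 2 genes with DESeq2, 2 with no filter and 4 with the replicate block. The causes were not tested.

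Leaving out each library in turn, the members called numbered 7 to 9 higher and 1 to 1 lower in new RNA, 5 to 5 higher and 0 to 0 lower in total RNA, and 3 to 4 higher and 1 to 1 lower by the odds. The list had 3 to 4 higher and 13 to 16 lower in new RNA, and 2 to 5 higher (5 without DMSO replicate 3) and 0 to 3 lower in total RNA (0 without C646 replicate 3 or DMSO replicate 2, 3 without C646 replicate 1 or DMSO replicate 3).

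Signs changed for FTH1 in total RNA without C646 replicate 1 (−0.0072, up to 0.2369 without DMSO replicate 1), for FTL in total RNA by all filtered reads (0.0484), for MAFG in new RNA with TMM (0.54) or DESeq2 (0.51) on T>C reads, for TXN in new RNA without C646 replicate 3 (−0.2632, up to 0.2429 without C646 replicate 1), and for TFRC in total RNA by all filtered reads (0.14), without C646 replicate 1 (0.05) and without DMSO replicate 1 (0.0584), down to −0.1879 without C646 replicate 3.

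Same-numbered libraries shared deviations from their group means with correlations of 0.030 to 0.065 across genes in new RNA and of −0.0014 to 0.23 in total RNA, so the numbers were not taken to pair cultures. In new RNA all 6 libraries correlated best with their own number, in total RNA 3 of 6, a hint from the data and not from the design. With the replicate block 8 members were called higher and 1 lower in new RNA, as without it.

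Depth limits HMOX1, OSGIN1, NQO1, GCLC, AKR1C1, AKR1C2, MAFF, MAFK, AKR1A1, NFE2L1 and the new RNA of PRDX2, which had few T>C reads in at least 1 group.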
